A study of Homo sapiens with 8 samples.

Results

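The genes described here make cholesterol, make and desaturate fatty acids, activate or burn fatty acids, or take part in sterol control and export. The list of 39 human genes holds 15 enzymes of sterol synthesis, 4 genes of sterol control and export, 6 of fatty acid synthesis and desaturation, 3 that activate fatty acids and 11 of beta-oxidation. A member was measured where at least 1 probe set, the group of short oligonucleotides that reads 1 transcript, carried its symbol and no other. That held for 33 members with 36 probe sets, of 7713 genes named this way on the array, and all 33 passed the filter on low signals and were tested. HADH, FDFT1, FADS1, ACADS, ACSL3 and CYP51A1 have no such probe set and are not analysed here. ACAA1, FASN and ACSL1 have more than 1, and each is represented by the brighter one.

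RNA came from 2 breast cancer cell lines, ZR75-1, labelled estrogen receptor positive, and SKBR3, labelled negative. Both were grown without phenol red in medium with 4% foetal bovine serum and, 24 h after seeding, received with FuGene-6 a plasmid carrying HSD17B14 or the vector without the insert. HSD17B14 encodes a hydroxysteroid dehydrogenase. Cells were harvested 48 h after transfection, and each of the 4 groups (ZR75-1 with HSD17B14, ZR75-1 with vector, SKBR3 with HSD17B14, SKBR3 with vector) has 2 Affymetrix arrays. The expression was transient and no untransfected cells were used here. Nothing in the labels says that the arrays of a group came from separate cultures, and the tests reflect the spread between arrays, which may be technical and whose small number limits the precision.

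Cells build cholesterol from acetyl-CoA through the mevalonate pathway, squalene and lanosterol. The membrane-bound factors SREBP-1 and SREBP-2, encoded by SREBF1 and SREBF2, switch on this pathway when sterols are scarce, and INSIG1 holds them back when sterols are plentiful. SREBP-1 acts mainly on fatty acid synthesis, in which ACLY supplies cytosolic acetyl-CoA, ACACA makes malonyl-CoA, FASN assembles palmitate and SCD and FADS2 add double bonds. Beta-oxidation runs the other way, for most of these members in mitochondria: CPT1A and CPT2 carry acyl groups in, and dehydrogenases, hydratases and thiolases shorten them. FASN is known for its high expression in many breast cancers.

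RefSeq promoters, from the GRCh38.p14 table, covered 35 of the 39 members, all but FASN, SQLE, ACAA1 and FDFT1, with 50 windows, each 250 bases before to 50 bases after a start. They were searched on both strands for 4 motifs tied to these pathways in the literature on SREBP targets. The NF-Y box CCAAT stood in 13 of 18 windows of sterol synthesis genes (72.2%), 6 of 9 of fatty acid synthesis genes (66.7%) and 1 of 12 of beta-oxidation genes (8.33%), against 34.6% of all 35116 promoters. The GC box GGGCGG stood in 78% of member windows, against 45.0% of all promoters. The sterol regulatory element, spelled TCACNCCAC, was found in 2 of 50 member windows (4.0%), of ACSL1 and SREBF2, and in 1.13% of all promoters. The E-box CACGTG stood in 10.0% of member windows and 7.26% of all. A match is a run of letters and not a shown binding site, and no match says only that these letters are absent from the window. Printed here, to show these motifs in each arm, are SCD with the regulator SREBF1, a pair of sterol synthesis genes and a pair of beta-oxidation genes. The sequences are the 250 bases before the start, 5′ to 3′ on the gene's strand, with every NF-Y box (CCAAT, or ATTGG on the other strand) and GC box (GGGCGG, or CCGCCC) in capitals.
SCD, fatty acid desaturation, chr10:100346983-100347232, plus strand: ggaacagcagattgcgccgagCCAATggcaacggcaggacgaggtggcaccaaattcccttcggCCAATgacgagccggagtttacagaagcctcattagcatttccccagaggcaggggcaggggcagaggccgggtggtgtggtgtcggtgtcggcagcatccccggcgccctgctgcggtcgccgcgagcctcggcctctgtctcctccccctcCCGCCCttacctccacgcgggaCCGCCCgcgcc
SREBF1, regulator, chr17:17836987-17837236, minus strand: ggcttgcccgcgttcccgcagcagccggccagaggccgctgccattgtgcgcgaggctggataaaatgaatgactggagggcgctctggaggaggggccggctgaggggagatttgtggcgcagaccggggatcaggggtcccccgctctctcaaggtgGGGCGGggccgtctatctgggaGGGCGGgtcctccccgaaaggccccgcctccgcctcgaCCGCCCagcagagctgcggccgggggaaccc
EBP, sterol synthesis, chrX:48521558-48521807, plus strand: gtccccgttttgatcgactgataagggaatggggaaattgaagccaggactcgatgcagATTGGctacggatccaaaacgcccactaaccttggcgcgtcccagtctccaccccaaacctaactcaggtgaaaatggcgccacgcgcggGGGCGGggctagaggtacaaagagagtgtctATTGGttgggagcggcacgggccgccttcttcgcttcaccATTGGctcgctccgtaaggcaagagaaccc
FDPS, sterol synthesis, chr1:155308616-155308865, plus strand: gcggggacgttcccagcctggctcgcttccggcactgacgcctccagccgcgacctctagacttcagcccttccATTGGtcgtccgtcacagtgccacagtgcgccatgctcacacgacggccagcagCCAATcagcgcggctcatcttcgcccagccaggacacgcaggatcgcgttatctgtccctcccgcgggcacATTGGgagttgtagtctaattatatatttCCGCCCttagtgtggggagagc
ACADM, beta-oxidation, chr1:75724459-75724708, plus strand: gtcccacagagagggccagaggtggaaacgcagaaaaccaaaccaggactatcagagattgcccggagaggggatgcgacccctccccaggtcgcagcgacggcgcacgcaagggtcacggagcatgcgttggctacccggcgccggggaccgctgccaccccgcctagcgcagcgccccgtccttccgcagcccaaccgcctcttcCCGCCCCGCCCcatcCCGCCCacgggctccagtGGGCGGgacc
ECHS1, beta-oxidation, chr10:133373355-133373604, minus strand: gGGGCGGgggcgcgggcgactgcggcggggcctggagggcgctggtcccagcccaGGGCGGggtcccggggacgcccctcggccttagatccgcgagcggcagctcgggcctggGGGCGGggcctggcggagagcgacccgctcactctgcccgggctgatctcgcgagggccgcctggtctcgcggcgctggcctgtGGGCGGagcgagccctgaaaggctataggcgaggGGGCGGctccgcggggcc
SCD holds 2 NF-Y boxes here, EBP 3 and FDPS 3, while SREBF1, ACADM and ECHS1 hold 0. GC boxes number 2 in SCD, 3 in SREBF1, 1 in EBP, 1 in FDPS, 4 in ACADM, where the first of them overlaps its neighbour, and 5 in ECHS1. No match of one motif overlapped a match of another in these sequences.

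All values below are MAS5 signals on a linear scale, which were scaled by the authors to a trimmed mean of 100.1 on each array. Differences are on the log2 scale with their SE, from a limma fit over all 8 arrays, and a gene passed where its p-value, adjusted over all 6251 tested probe sets, was under 0.05. Signals under 17.6, the highest of the arrays' 40th percentiles, are called under the floor. The plasmid's gene followed its labels: on ZR75-1 arrays HSD17B14 had 107.5 and 135.3 after its own plasmid, against 17.8 and 2.1 after empty vector (log2 4.30 ± 0.78, limma adjusted p = 0.0296). Of these vector values 2.1 lay under the floor and 17.8 just above it, so the size of that rise is uncertain. The SKBR3-labelled arrays had 650.7 and 743.6 after the plasmid, against 2.0 and 4.2 after empty vector, at least 39.5-fold higher (limma adjusted p = 1.42e-04). ERBB2, whose amplification is a known mark of SKBR3, was at 95.9 to 226 on the ZR75-1 arrays and 25.9 to 46.8 on the SKBR3 ones, so the arrays of that line go against its name and are called SKBR3-labelled throughout. ESR1, the estrogen receptor, was at 194.5 to 341.6 in ZR75-1 and 14.9 to 24.6 in the SKBR3-labelled cells. Of the 3 hepatocyte markers listed, 0 lay above the floor on any array, and of the 4 adipocyte markers CIDEC did so on all 8. Signals of the 2 arrays of a group differed by a median of 0.27 (log2) over the 33 members in ZR75-1 with HSD17B14, 0.23 with vector, 0.15 in SKBR3-labelled cells with HSD17B14 and 0.43 with vector. The actin 3'/5' ratio, a measure of RNA integrity, was 2.83 and 2.66 in ZR75-1 with HSD17B14 against 2.03 and 2.02 with vector, and 2.28 and 3.09 against 3.6 and 3.0 in the SKBR3-labelled cells.

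**Figure D1:**
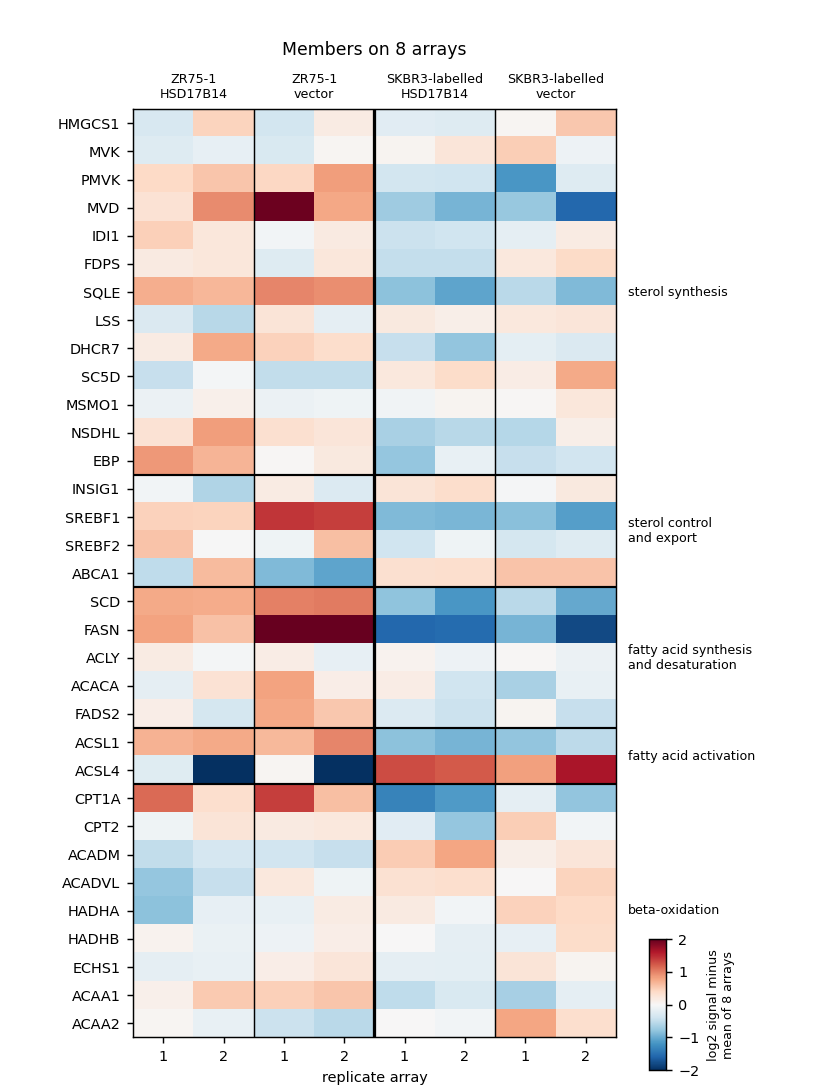
Each row is a member, grouped by role, and each column is 1 array, with HSD17B14 left of vector in each line. Colour gives the log2 signal minus the member's mean over the 8 arrays, with the scale ending at 2 either way. FASN, SREBF1, SCD and SQLE are red on the ZR75-1 arrays and blue on the SKBR3-labelled ones, and FASN and SREBF1 are paler with HSD17B14 than with vector in ZR75-1.

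The first comparison asks what the plasmid did to these pathways in the estrogen receptor positive line. In ZR75-1, FASN, the enzyme that assembles palmitate, fell 2.91-fold, and it was the 1 member of 33 that passed, when 1.59% of all 5549 tested genes passed and 0.793% passed as lower. FASN had 371.2 and 319.9 with HSD17B14, against 1183.4 and 847.1 with vector. Both plasmid arrays thus lay below both vector arrays by a gap larger than that between arrays of either group (log2 -1.54 ± 0.26, limma adjusted p = 0.0257). Its second probe set stayed under the floor on all 8 arrays and was not tested. The probe set reported is of a kind that can read several transcripts of one gene or family.

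The FASN call depended on single arrays and on the model. Alternatives that leave out a SKBR3-labelled array or change the filter alter only the spread or the number of tests. In them FASN kept its fitted value of -1.54. It did not pass without ZR75-1 HSD17B14 array 1 (adjusted p = 0.0819), without HSD17B14 array 2 (adjusted p = 0.0908), without vector array 1 (adjusted p = 0.0895), or with the actin ratio, which separates these groups, as a covariate (log2 -1.98, limma adjusted p = 0.278). Over 19 alternatives the fitted value ran from -1.98 to -0.61, always below 0, and 12 passed (limma adjusted p between 8.24e-04 and 0.765).

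SREBF1, which encodes SREBP-1, had 97.4 and 96.0 with HSD17B14, against 190.4 and 185.2 with vector. The arrays of each group almost coincide and the groups lie far apart, but the difference of -0.96 ± 0.24 missed the threshold (limma adjusted p = 0.0688), and it passed in 3 of 19 alternatives. Of the other control genes, SREBF2 and INSIG1 had overlapping groups. SREBF2 was at 54.3 and 36.7 with HSD17B14, against 34.7 and 55.7 with vector, and INSIG1 at 54.1 and 37.2, against 63.3 and 46.5. ABCA1, which exports cholesterol from cells, had 21.5 and 47.4 with HSD17B14, while both vector values, 16.6 and 14.7, lay under the floor (limma adjusted p = 0.266).

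The rest of the fatty acid synthesis arm did not pass in ZR75-1. FADS2, a desaturase of polyunsaturated fatty acids, had 76.7 and 55.0 with HSD17B14, against 119.1 and 101.6 with vector (log2 -0.76 ± 0.28, limma adjusted p = 0.185). SCD, the stearoyl-CoA desaturase, had 1508.7 and 1500.1, against 1795.9 and 1839.5 (-0.27 ± 0.18). The plasmid arrays were below the vector arrays for both genes. ACACA, at 149.9 and 208.1 against 299.2 and 187.4, had overlapping groups (-0.42 ± 0.28). ACLY, at 469.2 and 409.9 against 463.8 and 374.4, was within 0.07 ± 0.16 of its vector level. The median over these 5 genes was -0.42, with FASN at the low end and ACLY at the high end, beside -0.05 over all tested genes.

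Of 13 sterol synthesis genes, 0 passed in ZR75-1, and 8 had fitted values above 0 and 5 below (median 0.10). The largest of those above 0 was EBP, the sterol isomerase, which had 284 and 248.1 with HSD17B14, against 158 and 176.9 with vector (log2 0.67 ± 0.21, limma adjusted p = 0.127). LSS, which closes the sterol ring as lanosterol synthase, pointed the other way, at 97 and 80.2 against 141.1 and 103.7 (-0.46 ± 0.21, limma adjusted p = 0.283). The groups of both genes do not overlap, yet neither passed. SQLE, the squalene epoxidase, had 289.6 and 277.9, against 344.6 and 332.8 (-0.26 ± 0.18). IDI1, the isopentenyl diphosphate isomerase, had 1076.8 and 909, against 751 and 880.9 (0.28 ± 0.16). The design of its probe set allows binding to similar transcripts.

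Beta-oxidation also had 0 of 9 members that passed in ZR75-1, with 7 fitted values below 0 (median -0.20). ACADVL, the very long chain acyl-CoA dehydrogenase, had 114.7 and 142.1 with HSD17B14, against 226.9 and 184.2 with vector (log2 -0.68 ± 0.20, limma adjusted p = 0.0994). HADHA, the alpha subunit of the trifunctional protein, had 111.9 and 177.6, against 179.2 and 221.7 (-0.50 ± 0.22), with the nearest arrays of the groups at 177.6 and 179.2. HADHB, its partner subunit, had overlapping values of 496.4 and 432.3, against 442.4 and 518.5 (-0.05 ± 0.18). ACADM, the medium chain enzyme, was at 53.4 and 59.8, against 58.0 and 54.9 (0.00 ± 0.24). The carriers CPT1A and CPT2 had SEs of 0.47 and 0.45, so a moderate difference in them was not detectable here. The 2 probe sets of ACSL1, which activates long chain fatty acids, disagreed, at -0.09 ± 0.26 for the brighter and 0.75 ± 0.30 for the other, and neither passed.

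Without adjustment, 8 of the 33 members had a limma p under 0.05 in ZR75-1, or 24.2%, beside 18.1% of all genes. Of these 2 were higher (6.06%, beside 8.52% of all genes) and 6 lower (18.2%, beside 9.62%). In addition, 14 of the 33 had groups that do not overlap, beside 47.1% of all genes. Median centring of the arrays moves the median of all tested genes in this contrast to 0.16 and turns the sign of 6 of the 32 members that did not pass, while FASN stayed called at -1.33.

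**Figure D2:**
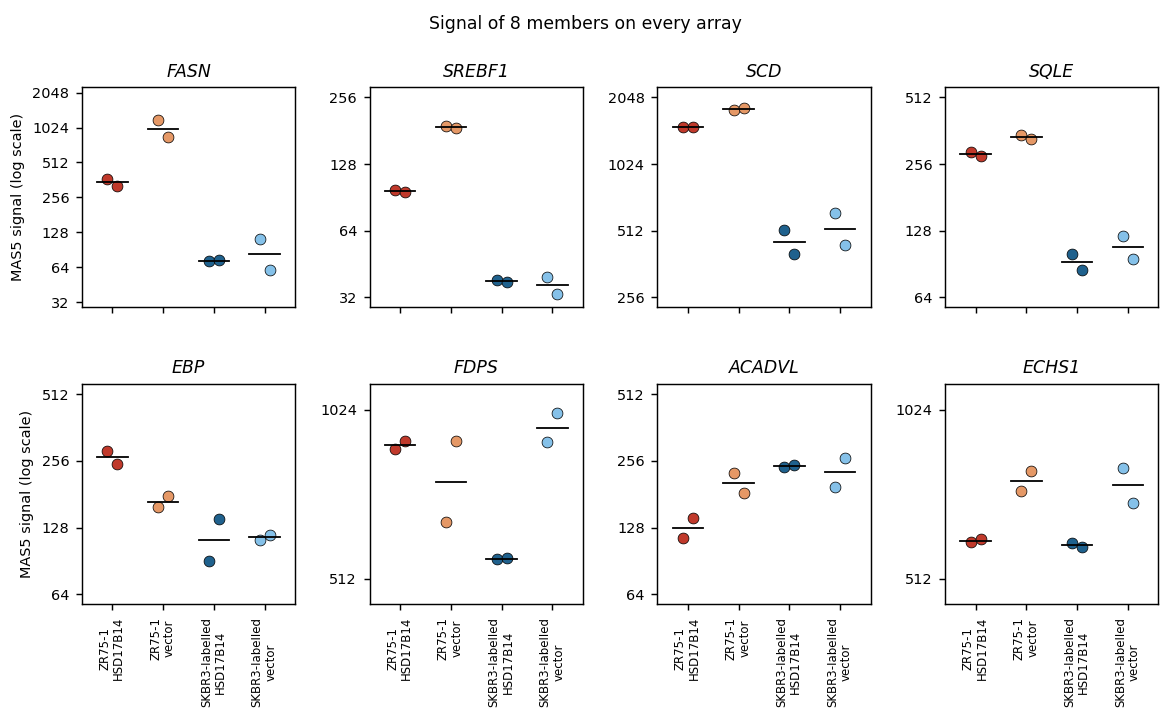
MAS5 signals on a log axis for 8 members on every array, with each dot 1 array and each bar the mean of the log2 values of its 2 arrays. FASN and SREBF1 lie lower with HSD17B14 than with vector in ZR75-1, FDPS lies lower with HSD17B14 in the SKBR3-labelled cells, and ECHS1 has all 4 HSD17B14 arrays below all 4 vector arrays.

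The same plasmid was then compared with its vector in the line labelled estrogen receptor negative. Of the 33 members, 0 passed by limma, beside 1.06% of all tested genes, and 4 had an unadjusted p under 0.05, all lower, or 12.1% beside 8.45% of all genes (3.55% lower). FDPS, the farnesyl diphosphate synthase of the mevalonate pathway, was nearest to the threshold. It had 555.6 and 556.6 with HSD17B14, against 895.7 and 1011.5 with vector (log2 -0.78 ± 0.16, limma adjusted p = 0.0542), and it passed in 7 of 19 alternatives (limma adjusted p between 0.014 and 0.496).

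Sterol synthesis genes had 11 of 13 fitted values below 0 in the SKBR3-labelled cells, with a median of -0.15 beside -0.01 over all genes. IDI1 had 575 and 589.1 with HSD17B14, against 688.8 and 870.6 with vector (-0.41 ± 0.16, limma adjusted p = 0.474). HMGCS1, which makes the precursor of mevalonate, had 121.6 and 118.6, against 145.2 and 205.8 (-0.53 ± 0.28), and DHCR7, the last enzyme of cholesterol synthesis in one branch, had 126.9 and 102, against 153 and 144 (-0.38 ± 0.21). All 3 show groups that do not overlap, as did 14 of the 33 members and 40% of all tested genes in this comparison. The exceptions above 0 were PMVK, at 77.6 and 76.1 against 44.7 and 84.6, and MVD, whose 4 values lay under the floor.

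FASN and SREBF1 lay near their vector levels in the SKBR3-labelled cells. FASN had 71.8 and 73.7 with HSD17B14, against 112 and 60.9 with vector (-0.18 ± 0.26). SREBF1 had 38.5 and 37.5, against 39.7 and 33.0 (0.07 ± 0.24). For both genes the plasmid arrays fall between the vector arrays, while for SCD (513.4 and 399.7 against 613.7 and 440.1) the groups overlap. The fatty acid synthesis arm had a median of -0.15 with 0 of 5 at an unadjusted limma p under 0.05. That median was 0.10 without vector array 1 and -0.41 without vector array 2 of these cells.

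Beta-oxidation in the SKBR3-labelled cells had 6 of 9 fitted values below 0 and a median of -0.35. ACAA2, a mitochondrial thiolase, had 100.6 and 95.8 with HSD17B14, against 171.5 and 125.5 with vector (-0.58 ± 0.22, limma adjusted p = 0.461). ECHS1, the short chain enoyl-CoA hydratase, had 593.1 and 584.1, against 805.6 and 699.3 (-0.35 ± 0.13, limma adjusted p = 0.467). ACADM lay on the other side, at 106.6 and 130.2 against 82.0 and 88.6 (0.47 ± 0.24). CPT1A, the rate-limiting carrier, had 12.2 and 14.0, both under the floor, against 27.3 and 17.9.

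**Figure D3:**
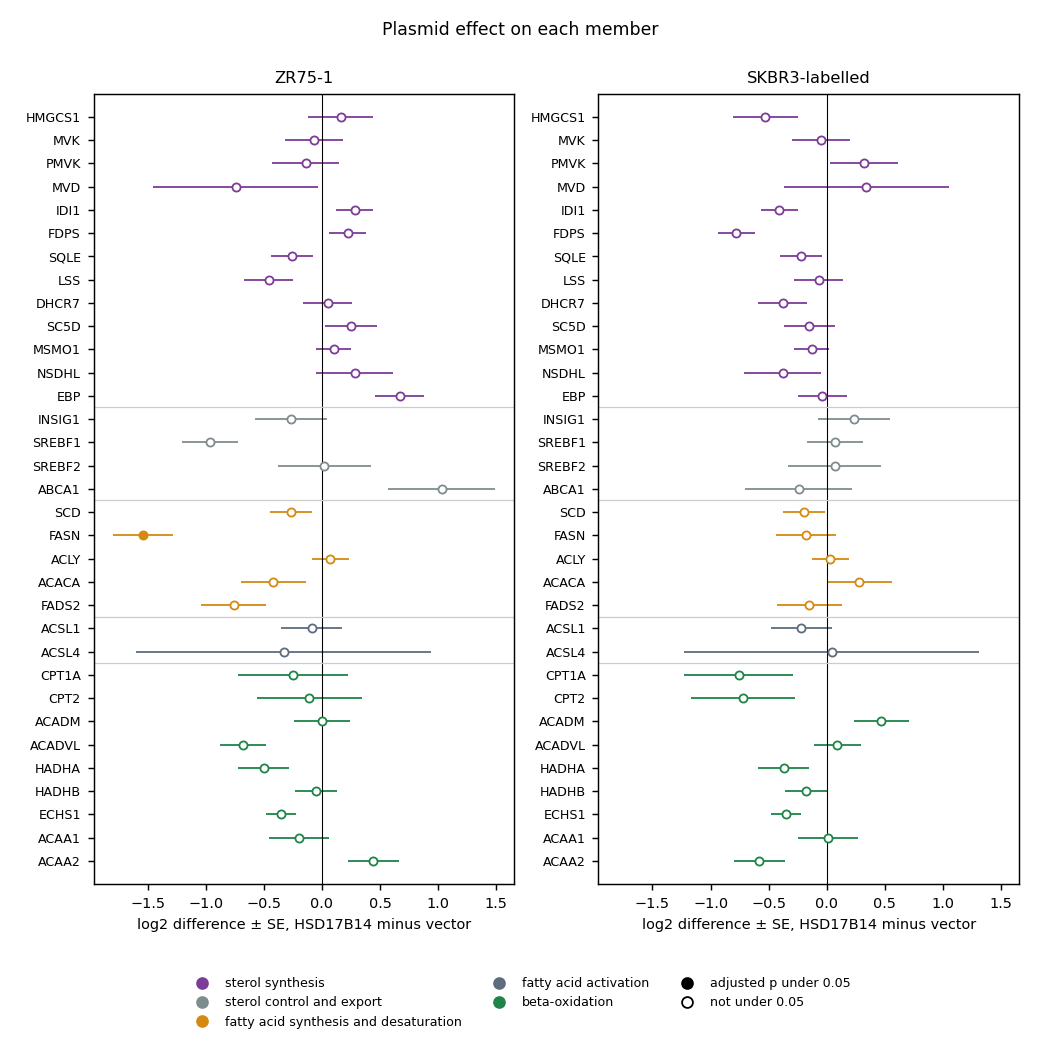
Log2 difference, HSD17B14 minus vector, with its SE for each of the 33 members, coloured by role, in ZR75-1 on the left and in the SKBR3-labelled cells on the right. Filled points passed the adjusted threshold, which FASN at -1.54 in ZR75-1 alone did, and ACSL4, whose signals lie near or under the floor, has the widest bars.

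Averaged over both lines, with 4 arrays an arm, FASN again was the 1 member of 33 that passed, at -0.86 ± 0.18 (limma adjusted p = 0.0455), beside 1.59% of all genes and 0.324% called lower. This average shares its arrays with the comparisons above, the fitted values it joins are -1.54 and -0.18, and it passed in 5 of 18 alternatives. It did not pass when any 1 array was left out except SKBR3-labelled vector array 2 (limma adjusted p between 0.00369 and 0.131 over the 8 omissions). ECHS1 had 594.5 and 601.8 with HSD17B14 against 734 and 796.6 with vector in ZR75-1, and with the SKBR3-labelled values above all 4 plasmid arrays lay below all 4 vector arrays. It is the only member with this property, which 2.45% of all tested genes share, and its difference of -0.35 ± 0.09 did not pass (limma adjusted p = 0.108). Of the 33 fitted averages 26 lay below 0, with medians of -0.06 for sterol synthesis, -0.24 for fatty acid synthesis and -0.29 for beta-oxidation, beside -0.02 for all genes. Median centring turned the sign of 9 of the 32 members that did not pass, and it moved the median of all genes to 0.12.

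Whether the plasmid effect differed between the lines was tested as an interaction, ZR75-1 minus SKBR3-labelled. Of the 33 members 0 passed by limma, beside 0.703% of all genes, and 7 had an unadjusted p under 0.05, or 21.2% beside 13% of all genes. FDPS differed by 0.99 ± 0.23 (limma adjusted p = 0.104). Its ZR75-1 arrays, at 872 and 899.8 with HSD17B14 against 645 and 900.5 with vector, overlapped. FASN differed by -1.36 ± 0.37 (limma adjusted p = 0.148), SREBF1 by -1.03 ± 0.34 (limma adjusted p = 0.244) and ACADVL by -0.77 ± 0.28 (limma adjusted p = 0.29). ACAA2, whose ZR75-1 values were 102.8 and 90.4 with HSD17B14 against 73.7 and 68.9 with vector, differed by 1.02 ± 0.31 (limma adjusted p = 0.212). The medians by role were 0.40 for sterol synthesis, -0.62 for fatty acid synthesis and 0.00 for beta-oxidation, beside -0.05 over all genes. Without ZR75-1 HSD17B14 array 2 the sterol synthesis median was 0.14, and over omitted arrays the fatty acid synthesis median ran from -0.73 to -0.35. With SEs of this size, the misses do not show that the lines responded alike. HSD17B14 signals after the plasmid also differed, at 107.5 and 135.3 in ZR75-1 against 650.7 and 743.6 in the SKBR3-labelled cells. Line and level of the plasmid's gene cannot be told apart in this comparison.

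The third comparison sets the lines side by side, ZR75-1 minus SKBR3-labelled, with 4 arrays each. Of the 33 members 23 passed, 15 higher and 8 lower in ZR75-1 (69.7%), beside 49.5% of all tested genes, of which 23.2% were higher and 26.3% lower. Fatty acid synthesis was higher in ZR75-1 in 4 of 5 genes, sterol synthesis in 7 of 13 with 2 lower, and beta-oxidation was split, with 2 of 9 higher and 4 lower. The medians were 0.55, 0.42 and -0.02, beside -0.04 over all genes. They depended on the plasmid. Among vector arrays alone the fatty acid synthesis median was 0.88 and the sterol synthesis median 0.07, with 4 sterol genes higher and 1 lower. Among HSD17B14 arrays alone these medians were 0.24 and 0.77, with 7 sterol genes higher and 0 lower. The lines differ in much else, such as CDH1 at 1074.7 to 1508.4 in ZR75-1 against 26.8 to 58.1, and vimentin (VIM) at 0.4 to 25.7 against 3646.2 to 5325.8. The other measured mesenchymal markers did not follow VIM. COL1A1 was higher in ZR75-1, at 21.8 to 50.4 against 3.4 to 14.4, while CDH2 lay above the floor on 1 array and SPARC on 0. The part of such differences in the lipid genes was not tested.

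In fatty acid synthesis, the FASN signals given above make it 7.58-fold higher in ZR75-1 (log2 2.92 ± 0.18, limma adjusted p = 1.52e-07). Its lowest ZR75-1 signal, 319.9, was above its highest SKBR3-labelled one, 112. The line difference was 4.74-fold among the HSD17B14 arrays and 12.1-fold among the vector arrays. SCD was 3.41-fold higher (1.77 ± 0.13, limma adjusted p = 3.72e-07), with 3.32-fold among the HSD17B14 arrays and 3.5-fold among the vector arrays. FADS2, at 58.1 and 52.2 with HSD17B14 and 73.0 and 50.8 with vector in the SKBR3-labelled cells, was higher by 0.55 ± 0.20 (limma adjusted p = 0.0402), and ACACA by 0.52 ± 0.20 (limma adjusted p = 0.046). These 2 overlapped between the lines, and each passed in about as many alternatives as it missed (9 of 20 for FADS2 and 10 of 20 for ACACA). ACLY, at 439.7 and 391.8 and at 425.9 and 387.6 in the SKBR3-labelled cells, differed by 0.06 ± 0.11 and did not pass.

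Among control genes, SREBF1 was 3.63-fold higher in ZR75-1 (1.86 ± 0.17, limma adjusted p = 2.68e-06), at 2.54-fold among HSD17B14 arrays and 5.19-fold among vector arrays. SREBF2 (0.54 ± 0.28) and INSIG1 (-0.38 ± 0.22) did not pass. SREBF2 had 28.0 and 34.7 with HSD17B14 and 28.8 and 30.8 with vector in the SKBR3-labelled cells, and INSIG1 67.7 and 71.6 and then 55.2 and 64.2. ABCA1, at 38.3 and 38.5 and at 45.4 and 45.1 there, was lower in ZR75-1 by a log2 difference of -0.90 ± 0.32 (limma adjusted p = 0.0379), and passed in 11 of 20 alternatives. Its signals overlapped between the lines. Among vector arrays alone, where both ZR75-1 values lay under the floor, it was at least 2.57-fold lower (limma adjusted p = 0.0194). Among HSD17B14 arrays alone it was at -0.27 ± 0.46 and did not pass (limma adjusted p = 0.711).

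Among sterol synthesis genes above the floor in both lines, the difference was largest at SQLE, the enzyme that oxidises squalene, whose SKBR3-labelled signals were 99.9 and 84.7 with HSD17B14 and 121.1 and 95.4 with vector. It was 3.12-fold higher in ZR75-1 (1.64 ± 0.13, limma adjusted p = 7.40e-07), with no overlap. PMVK, which phosphorylates mevalonate phosphate, had 133.1 and 147.7 with HSD17B14 and 133.5 and 179.4 with vector in ZR75-1, 2.14-fold above the SKBR3-labelled cells (1.10 ± 0.20). EBP (0.89 ± 0.15), DHCR7 (0.87 ± 0.15), NSDHL (0.83 ± 0.23) and IDI1 (0.42 ± 0.11) were higher too, and of these only IDI1 overlapped between the lines. Among vector arrays alone DHCR7 passed (0.65 ± 0.21), while EBP (0.53 ± 0.21), NSDHL (0.50 ± 0.33) and IDI1 (0.07 ± 0.16) did not. Each of them passed among HSD17B14 arrays alone. DHCR7 had 196.5 and 295.2 and then 242 and 224.3 in ZR75-1. EBP had 90.8 and 139.7 and then 112.7 and 118.4 in the SKBR3-labelled cells. NSDHL, a sterol dehydrogenase that removes a methyl group, had 63.9 and 93.6 and then 65.3 and 61.9 in ZR75-1, against 33.4 and 35.6 and then 35.5 and 56.8. These are again HSD17B14 arrays first and vector arrays next, and the lowest ZR75-1 value of each gene clears the highest SKBR3-labelled one.

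MVD, the mevalonate diphosphate decarboxylase, had 17.8 and 28.0 with HSD17B14 and 56.3 and 24.7 with vector in ZR75-1, while all SKBR3-labelled values were at 8.9 or less. It was at least 1.64-fold higher (limma adjusted p = 0.00623). SC5D, a sterol desaturase, was lower in ZR75-1, with 137.2 and 183.8 and then 133.8 and 133.7 in ZR75-1, against 219.4 and 244.2 and then 208.8 and 317.9 (-0.74 ± 0.15, limma adjusted p = 0.00175). LSS was lower as well, by a narrow margin (-0.39 ± 0.15, limma adjusted p = 0.0499), with SKBR3-labelled signals of 135.2 and 128 and then 137.1 and 139.6, and it passed in 6 of 20 alternatives. MVK (-0.35 ± 0.18), FDPS (0.18 ± 0.12), MSMO1 (-0.11 ± 0.10) and HMGCS1 (-0.04 ± 0.20) did not pass. MSMO1 was the flattest enzyme of the arm, with all 8 signals between 445.6 and 568. FDPS reached 0.67 ± 0.16 among the HSD17B14 arrays alone (limma adjusted p = 0.00787). Among the vector arrays alone its sign was opposite, at -0.32 ± 0.16 (limma adjusted p = 0.146).

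**Figure D4:**
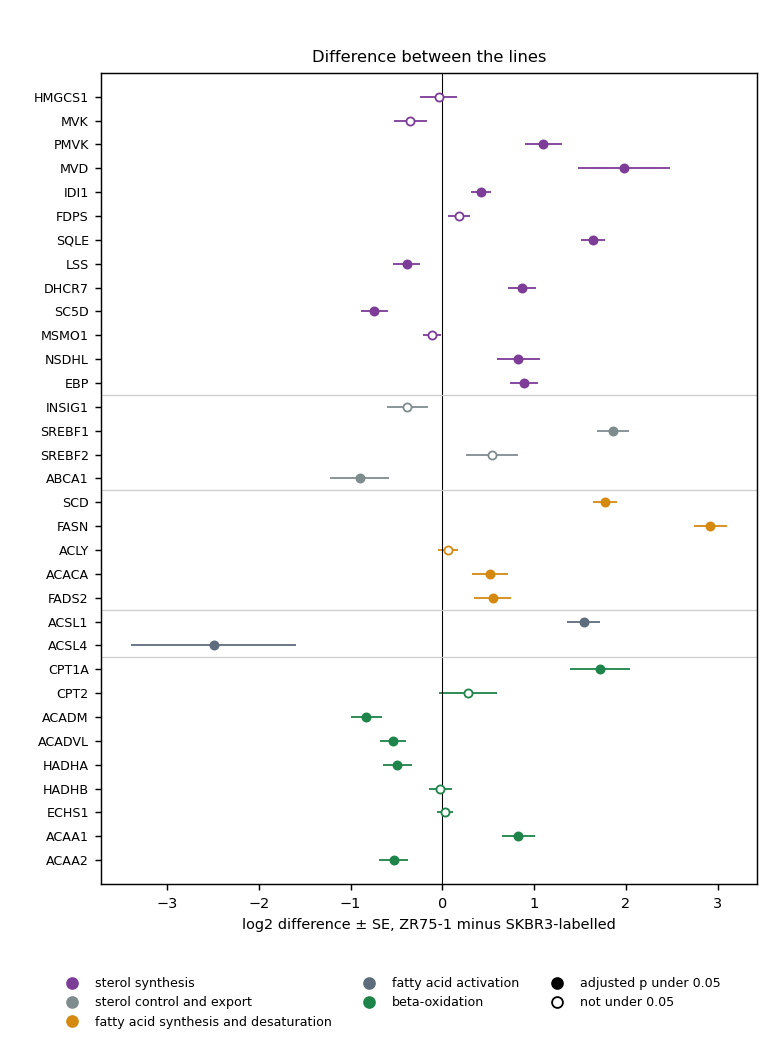
Log2 difference between the lines, ZR75-1 minus SKBR3-labelled over both plasmids, with its SE for each of the 33 members, coloured by role. Filled points passed the adjusted threshold. FASN lies farthest right at 2.92, SCD, SREBF1 and SQLE lie between 1.64 and 1.86, and the beta-oxidation genes lie on both sides of 0.

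Fatty acid activation went in both directions. ACSL1 had 104.9 and 110.4 with HSD17B14 and 101.7 and 128.3 with vector in ZR75-1, against 36.8 and 34.1 and then 37.7 and 45.1 (1.54 ± 0.18, limma adjusted p = 2.69e-05), and its second probe set also passed (0.92 ± 0.21). ACSL4, which prefers arachidonic acid, passed as lower, but every ZR75-1 signal and all but 1 SKBR3-labelled signal, 18.4, lay under the floor, so it has no fold here.

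In beta-oxidation, CPT1A had 67.3 and 38.8 with HSD17B14 and 79.9 and 46.5 with vector in ZR75-1, and was higher than in the SKBR3-labelled cells (fitted log2 1.72 ± 0.33, limma adjusted p = 0.00113). Both SKBR3-labelled HSD17B14 arrays lay under the floor, and with values raised to it the difference was 1.5 (limma adjusted p = 0.00733). ACAA1, a peroxisomal thiolase, had 84.6 and 113.5 and then 109.3 and 116.2, against 55.6 and 63.6 and then 49.9 and 70.0 (0.83 ± 0.18), and its second probe set passed in the same direction (0.51 ± 0.18). The 4 lower genes encode mitochondrial enzymes. ACADM was at a log2 difference of -0.83 ± 0.17, ACADVL at -0.54 ± 0.14, ACAA2 at -0.53 ± 0.16 and HADHA at -0.49 ± 0.16 (limma adjusted p from 0.00142 to 0.022). Of these 4, only ACADM had no overlap between the lines. The SKBR3-labelled signals of ACADVL were 239.9 and 246.5 with HSD17B14 and 196.2 and 265 with vector, and those of HADHA 224.8 and 190.2 and then 272.2 and 261.7. CPT2 (0.28 ± 0.32), HADHB (-0.02 ± 0.13) and ECHS1 (0.03 ± 0.09) did not pass. ACADVL was at -0.93 ± 0.20 among HSD17B14 arrays and -0.16 ± 0.20 among vector arrays, and ACAA2 at -0.03 ± 0.22 and -1.04 ± 0.22. The difference between the arms is the interaction given above, which passed for neither.

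With the vector arrays alone 15 members passed between the lines, 12 higher and 3 lower, beside 40.4% of all genes (19.6% higher and 20.8% lower). With the HSD17B14 arrays alone 14 passed, 12 higher and 2 lower, beside 33.5% of all genes (15.2% higher and 18.3% lower). SCD, SREBF1, ACSL1, SQLE and CPT1A passed in all 20 alternatives and FASN in 19. With the actin ratio as a covariate 9 members passed. In all, 15 of 33 members had no overlap between the lines, 45.5% beside 42.9% of all genes.

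Other genes of these pathways and their neighbours were read from lists. Of 20 listed sterol genes 12 were tested. For the plasmid 0 were called by limma in either line, and 0 had an unadjusted p under 0.05. Of 29 listed genes of beta-oxidation and its neighbours 22 were tested and 0 called. In ZR75-1, 5 of the 22 had an unadjusted p under 0.05 (22.7%, beside 18.1% of all genes), and 0 did in the SKBR3-labelled cells. The beta-oxidation list also holds lipid-binding proteins and nuclear receptors. Of 20 listed fatty acid genes 7 were tested and 1 passed in ZR75-1 (14.3%, beside 1.59% of all genes), AGPAT1, an acyltransferase of phospholipid and triglyceride synthesis. It had 57.1 and 49.4 with HSD17B14, against 117.8 and 98 with vector (-1.02 ± 0.22, limma adjusted p = 0.0449). AGPAT1 passed in 2 of 8 fits that each left out 1 array, those without either SKBR3-labelled vector array (limma adjusted p between 0.0425 and 0.135 over the 8). The SKBR3-labelled arrays had 115 and 116.1 with HSD17B14, against 94.5 and 94.5 with vector. Between the lines, 5 sterol genes were higher and 3 lower in ZR75-1, and 2 fatty acid genes higher and 4 lower. In the list of beta-oxidation and its neighbours 9 genes were higher and 4 lower. In all 66.7%, 85.7% and 59.1% of the tested genes of these lists passed, beside 49.5% of all tested genes (23.2% higher and 26.3% lower). TM7SF2, a sterol reductase, was higher by 2.29 ± 0.23, and ABCG1, a cholesterol exporter, was at least 4.58-fold higher, from SKBR3-labelled signals of 3.3 to 7.5. SOAT1, which esterifies cholesterol, was at least 5.38-fold lower in ZR75-1, and PPARG, the nuclear receptor of fat storage, at least 3.73-fold lower. ME1, which supplies NADPH, was higher by 1.02 ± 0.14 and the elongase ELOVL5 lower by -0.47 ± 0.09. In the list of beta-oxidation and its neighbours ACOX2, a peroxisomal oxidase, was higher by 2.84 ± 0.23. The isomerase ECI2 (-2.0 ± 0.12) and the nuclear receptor PPARD (-2.29 ± 0.21) were lower.

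Across single arrays the arms did not move as one. The median of the 13 sterol synthesis genes, each centred on its mean over the 8 arrays, was 0.17 and 0.45 in ZR75-1 with HSD17B14 and 0.03 and 0.19 with vector, and -0.43 and -0.40 in the SKBR3-labelled cells with HSD17B14 and -0.17 and 0.11 with vector. The fatty acid synthesis medians were 0.16 and 0.29 and then 0.81 and 0.54 in ZR75-1, and -0.27 and -0.42 and then -0.55 and -0.46 in the SKBR3-labelled cells. Beta-oxidation medians were -0.08 and -0.14 and then 0.13 and 0.16 in ZR75-1. In the SKBR3-labelled cells they were 0.01 and -0.17 and then 0.12 and 0.24. Across both lines every HSD17B14 array lay below every vector array in this arm, which was not tested. In ZR75-1 the log2 medians of whole arrays were lower with HSD17B14 too, at 4.53 and 4.396 against 4.678 and 4.655 with vector. With median centring the fitted plasmid median of beta-oxidation in ZR75-1 was 0.00 instead of -0.20. Its SKBR3-labelled counterpart was -0.28 instead of -0.35. The fatty acid arm thus separates the lines on every array, while 1 SKBR3-labelled vector array of the sterol arm, at 0.11, lies among the ZR75-1 values.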

How the data were processed

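Messenger RNA was measured in 4 groups of 2 Affymetrix arrays. The authors deposited 1 linear signal intensity per probe set and array, which per the submitters' processing notes came from MAS5, whose version is not given in the sources used here. The deposited table holds 8793 probe sets, 47 of them controls, with no detection calls. Probe sets were named from GEO's platform annotation: 7840 have 1 symbol, 388 several and 518 none. Values were set to at least 1 and taken as log2 without further scaling, since array medians differ by 0.36 at most, less than the 0.5 set for recentring. A probe set was tested where it exceeded its array's 40th percentile (12.1 to 17.6) on at least 2 arrays, which 6251 did. limma 3.58.1 in R 4.3.3 fitted 4 group means with a variance prior that follows the mean (residual df 4, prior df 7.39, median SD 0.36), and p-values were adjusted by Benjamini-Hochberg over all tested probe sets. A gene is its probe set with the highest mean, which gives 5549 tested genes. Where a group lay under 17.6 on both arrays, a fold is a lower bound against the floor. Figures were drawn with matplotlib 3.10.9.

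Any member may be named. Values on every array were required for members that passed and for up to 3 per role and comparison by moderated t, and up to 3 neighbours that passed were named per list. Members, lists and tests were chosen with earlier results of these data known. Alternatives were quantile normalization, median centring, other filters, a pseudocount of 32, a raised floor, a replicate block, a prior independent of the mean, the actin ratio as a covariate, the mean over probe sets, each line alone, each plasmid alone, and leaving out each array. The fit was tested on simulated data.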

Additional observations from a re-analysis of the deposited data

How the results depend on the processing

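No member's called direction reversed under any alternative. In ZR75-1 the count of 1 called member became 2 with log2 of the signal plus 32 and with the line fitted alone, and 0 with values raised to the common floor, with a prior not dependent on the mean, with the actin covariate and with the mean over probe sets. It ran from 0 to 2 when each array was left out. In the SKBR3-labelled cells the count of 0 became 1, FDPS, with quantile normalization, the 60th percentile filter, log2 of the signal plus 32, the replicate block and the line fitted alone, and ran from 0 to 1 over omitted arrays. For the average of the lines the count of 1 became 0 with quantile normalization, median centring, no filter, the common floor, the prior not dependent on the mean and the mean over probe sets, and ran from 0 to 1 over omitted arrays. For the difference between the lines in plasmid effect the count of 0 became 1 with log2 of the signal plus 32, and ran from 0 to 1 over omitted arrays. The line count of 23 became 9 with the actin covariate, 15 with vector arrays only and 14 with HSD17B14 arrays only, and ran from 17 to 21 over omitted arrays. In ZR75-1, the beta-oxidation median became 0.00 with median centring. Over omitted arrays the sterol synthesis median ran from -0.12 to 0.21 and the fatty acid synthesis median from -0.76 to -0.28, and for the difference between the lines in plasmid effect the sterol synthesis median ran from 0.14 to 0.57 and the fatty acid synthesis median from -0.73 to -0.35. The fatty acid synthesis median of the plasmid effect in the SKBR3-labelled cells ran from -0.41 to 0.10. Of the line differences themselves, the sterol synthesis median ran from 0.33 to 0.50 over omitted arrays. It was 0.07 with vector arrays only and 0.77 with HSD17B14 arrays only. The causes were not tested.

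Same-numbered arrays of both plasmids did not deviate together over the tested probe sets (r = -0.0436 in ZR75-1 and -0.0351 in the SKBR3-labelled cells). With 2 arrays a group this cannot show whether arrays of one number were handled together, and the numbers are used here only as names. With the replicate block FASN stayed called in ZR75-1 (limma adjusted p = 0.0024), and FDPS passed in the SKBR3-labelled cells (limma adjusted p = 0.0226). The block pairs arrays by those numbers alone, so no conclusion is drawn from it. With 2 arrays a group and a median SD of 0.36, modest differences and signals near the floor are poorly resolved. Omitting an array of one line also alters calls in the other through the shared estimate of spread.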
